A study of Homo sapiens with 121 samples.

Results

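IFITM1, IFITM2 and IFITM3, the 3 interferon-induced transmembrane genes that act as antiviral restriction factors, were followed through 121 single human embryonic stem cells (hESCs). They are 3 of the 25610 genes read, and they were chosen by name after earlier results of these data were known, so their levels are a description and carry no test. The cells were of the hESC line WA26, grown undifferentiated in E8 medium on Matrigel without feeder cells, with no treatment in any group. In scT&R-seq, the poly(A) mRNA of 1 cell is captured on beads and made into a Smart-seq2 library, while the genomic DNA left over from the cell is used to measure telomere length. The labels place 81 cells in the Long, 25 in the Medium and 15 in the Short telomere group. All cells came from 1 line and no culture or batch is named for them, so each telomere group counts as 1 sample, and the SD is the spread across cells.

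The IFITM proteins are small membrane proteins that sit in the cell surface and in endosomes and make it harder for the envelope of many viruses to fuse with cellular membranes. IFITM1 is found mostly at the cell surface, and IFITM2 and IFITM3 mostly in endosomes. In most differentiated cells the genes are switched on by interferon, whose receptors signal through JAK kinases to a promoter element called ISRE. Pluripotent stem cells respond weakly to interferon and are known for making a set of these antiviral genes without it.

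The 3 genes lie beside each other on chromosome 11, with IFITM2 at 303655 to 309397 and IFITM1 at 310041 to 315272 on the plus strand, and IFITM3 at 319676 to 329475 on the minus strand (GRCh37, GENCODE). Their reference transcripts have 2 exons each. The sequences just before the transcription start are shown because they hold the element through which interferon acts. They are the 250 bases upstream of the start in RefSeq (GRCh38.p14), for IFITM1 chr11:313790-314039 on the plus strand and for IFITM3 chr11:320861-321110 on the minus strand. The promoter set used held no entry for IFITM2, so its promoter was not searched. Capitals mark each match to a spelling of the ISRE, GAAA and GAAAC with any 2 bases between them, which was searched on both strands.
IFITM1: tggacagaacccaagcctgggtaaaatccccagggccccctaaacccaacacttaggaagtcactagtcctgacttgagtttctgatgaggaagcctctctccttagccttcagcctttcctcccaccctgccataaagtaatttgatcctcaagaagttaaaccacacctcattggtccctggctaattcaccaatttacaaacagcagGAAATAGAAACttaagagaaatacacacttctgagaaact
IFITM3: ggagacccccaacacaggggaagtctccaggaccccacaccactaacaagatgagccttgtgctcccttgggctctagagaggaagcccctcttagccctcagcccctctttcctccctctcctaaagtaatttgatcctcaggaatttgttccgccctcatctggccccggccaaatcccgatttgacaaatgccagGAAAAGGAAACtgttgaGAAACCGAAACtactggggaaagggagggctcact
The IFITM1 promoter held 1 match, 40 to 30 bases before the start. The IFITM3 promoter held 2, at 52 to 42 and at 35 to 25 bases, and all 3 matches were on the strand of the gene. Of 35116 promoters of the same length, 0.644% held at least 1 match and 0.0427% at least 2. Aligned over 238 bases, the IFITM1 and IFITM3 promoters were identical at 69.3%.

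The coding sequences are closer still. IFITM2 and IFITM3 were identical at 94.0% of 399 aligned bases, IFITM1 and IFITM3 at 87.0% of 339, and IFITM1 and IFITM2 at 85.0% of 339. Reads of 50 bases therefore cannot always be placed. Of all windows of 50 bases in the reference transcript, 15.8% for IFITM1, 10.0% for IFITM2 and 20.8% for IFITM3 occur unchanged in a transcript of another gene. An annotated gene on the same strand that overlaps both IFITM1 and IFITM2 was left out of this count. The shares of IFITM1 and IFITM2 could be higher with it. With up to 2 mismatches to another IFITM gene or pseudogene, these shares were 21.8%, 29.3% and 67.8%. Among the 3 genes, 98 of the 562 windows of IFITM3 were unchanged in IFITM1 and 51 in IFITM2, while 273 were within 2 mismatches of IFITM2 and 135 of IFITM1. The levels of all 3 genes are uncertain to the extent that the authors' counting split or dropped such reads. Over its whole annotated span, each of the genes also overlaps at least 1 annotated gene on the opposite strand. Overlap with the exons of the reference transcripts was not examined. Smart-seq2 libraries do not mark strand, so where exons overlap, reads of the 2 strands cannot be told apart, whatever setting the counting used.

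The cells differed widely in the number of genes above TPM 1, called detected genes here (TPM is a level per transcript length that sums to nearly the same total in every cell). All cells had 7919 ± 2293 (SD, n = 121) detected genes, with 68 cells above 8000 and 53 up to 8000. The border was taken from an earlier analysis that set it after the values were seen. Short telomere cells had 5784 ± 2355 detected genes and Long telomere cells 8296 ± 2152, and 12 of 15 Short cells were in the lower set, against 30 of 81 Long and 11 of 25 Medium cells. TPM keeps no depth, so the reads behind a value are unknown, and depth and RNA content cannot be told apart as sources of this number. Less mRNA of a gene and a poorer library also cannot be told apart in such a cell. All 8 hESC markers were above TPM 1 in at least 50% of the cells, led by POU5F1 in 121 of 121 cells, and their summed TPM had a median of 3353 in Long, 2993 in Medium and 1573 in Short cells. At least 50% of cells were also above TPM 1 for 3 of 7 fibroblast, 1 of 6 trophoblast, 0 of 6 mesendoderm and 1 of 4 neural markers, beside 30.8% of all 25610 genes. Of the fibroblast markers, THY1 was above TPM 1 in 114 cells, VIM in 85, COL1A2 in 77, COL1A1 in 21, DCN in 1, and COL3A1 and LUM in 0.

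IFITM1 was among the most abundant mRNAs of these cells. Its TPM ran from 81.2 through a median of 2635 to 38537, with a mean of 4631 ± 5600 (SD, n = 121), and it was above TPM 1 in all 121 cells. By mean TPM it was gene 17 of 25610. Housekeeping genes were in the same range, with mean TPM of 3894 for ACTB, 3838 for PTMA and 3178 for GAPDH. Within single cells IFITM1 ranked between 1 and 1140, with a median rank of 69.

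IFITM3 followed, with TPM from 199 through a median of 2666 to 11980 and a mean of 2925 ± 1361. It was detected in all 121 cells and was gene 56 by mean. IFITM3 was the steadiest of the 3 genes, with an SD across cells of 0.65 on the log2(TPM + 1) scale, against 1.23 for IFITM1 and 1.77 for IFITM2. Its median was close to that of IFITM1, and IFITM1 was the higher of the pair in 61 of 121 cells.

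IFITM2 was the lowest of the 3 genes, with TPM from 0 through a median of 729 to 2402 and a mean of 784 ± 475. It was above TPM 1 in 120 cells and listed at 0 in the cell Short 6, and it was gene 233 by mean. Within a cell, IFITM1 exceeded IFITM2 in 118 of 121 cells by a median ratio of 3.60, and IFITM3 exceeded IFITM2 in 119 by a median ratio of 3.64. The order of the levels was thus IFITM1 or IFITM3 first and IFITM2 last in 116 of 121 cells. IFITM1 and IFITM3, the neighbours at the top, did not differ beyond their spread, with a median ratio of 1.00.

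The family as a whole had a summed TPM of 403 to 52918 with a median of 6276. IFITM1 made up 47.9% ± 16.8 of that sum, IFITM3 40.4% ± 12.9 and IFITM2 11.7% ± 6.93 (SD, n = 121 cells). The other family members read gave next to nothing. IFITM5, a bone gene, was above TPM 1 in 2 cells, IFITM10 in 3 and the pseudogene IFITM4P in 7, and their summed TPM reached 5.01 at most.

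The first question was whether the 3 genes followed telomere length. IFITM1 TPM ran from 671 through a median of 2733 to 26694 in Long cells, from 1220 through 2574 to 16297 in Medium cells and from 81.2 through 2588 to 38537 in Short cells. The 3 medians lay close together and the groups overlapped over nearly their whole range. On the log2(TPM + 1) scale the means were 11.62 ± 0.93 (SD, n = 81), 11.68 ± 1.17 (n = 25) and 11.46 ± 2.38 (n = 15). The Long-Short difference of 0.16 was far within the SD of either group, and the Long cell was the higher in 51.6% of all Long-Short pairs.

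IFITM3 TPM ran from 872 through 2703 to 6773 in Long cells, from 1670 through 2520 to 5918 in Medium cells and from 199 through 3035 to 11980 in Short cells. The Short cells held both the highest and the lowest cell. The means on the log2 scale were 11.39 ± 0.47, 11.41 ± 0.52 and 11.29 ± 1.40, so Long and Short cells differed by 0.10, within the SD, with the Long cell higher in 45.8% of pairs.

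IFITM2 TPM ran from 4.40 through 763 to 1918 in Long cells, from 90.6 through 697 to 2402 in Medium cells and from 0 through 482 to 2400 in Short cells. Its means on the log2 scale were 9.27 ± 1.52, 9.26 ± 0.99 and 8.01 ± 3.24. The Long-Short difference of 1.27 was again smaller than the SD of the Short cells, and the Long cell was higher in 63.0% of pairs. Without the cells Short 6 and Short 9, at TPM 0 and 1.67, the difference was 0.14. The lowest Long cells were kept in that comparison, so it was trimmed on 1 side only. The difference between the group medians over all cells was 0.66.

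**Figure D1:**
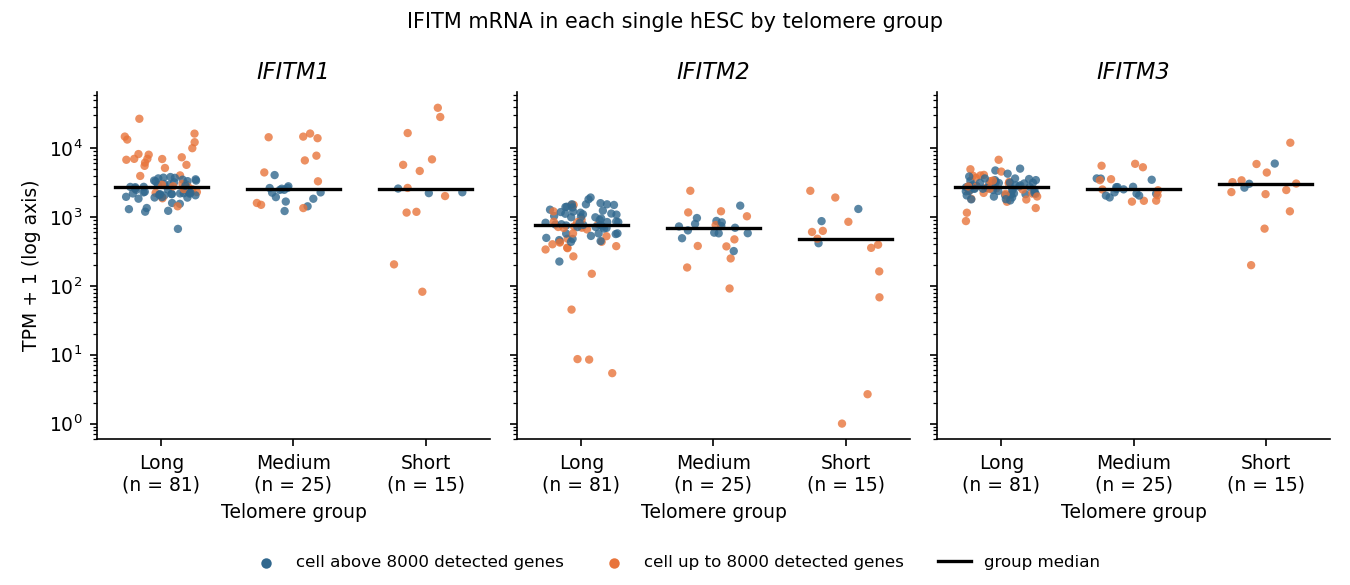
TPM + 1 on a log axis of IFITM1, IFITM2 and IFITM3 in each of 121 single hESCs, by telomere group (81 Long, 25 Medium and 15 Short cells). Each point is 1 cell, black lines are group medians, and orange marks cells up to and blue cells above 8000 detected genes. The blue cells lie in a narrower band than the orange cells in every group, and the highest IFITM1 and the lowest IFITM2 values are those of orange cells.

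These differences were read against all genes. Among the 6213 genes whose mean TPM reached 10, 66.5% had a mean log2 value at least 1 higher in Long than in Short cells and 1.71% at least 1 higher in Short cells, with a median difference of 1.40. IFITM2 was thus close to the median gene, while IFITM1 and IFITM3 were near 0. Most of the 6213 genes were less abundant than the IFITM genes, and no set of genes of like level was compared. Of the abundant housekeeping genes, ACTB had a Long-Short difference of 1.07, GAPDH of 0.49 and PTMA of 0.30. Rescaling the cells by the median ratio over genes moved the median gene by -0.38, to 1.02, and the share of genes higher in Long cells from 90.9% to 80.6%. With that scale the Long-Short differences were -0.61 for IFITM1, 0.73 for IFITM2 and -0.67 for IFITM3, so the direction for IFITM1 and IFITM3 depends on the scale. The median gene was higher in Long cells on both.

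Within the sets of detected genes the Long-Short differences were also smaller than the SD of the Short cells. Among cells above 8000 they were -0.02 for IFITM1, 0.17 for IFITM2 and -0.41 for IFITM3, with 3 Short cells only. Among cells up to 8000 they were 0.82, 0.81 and 0.18, where 51.0% of all genes were at least 1 higher in Long cells. Long and Medium cells differed by -0.06, 0.02 and -0.01, in a comparison in which 1.75% of genes were at least 1 higher in Long and 0.66% at least 1 higher in Medium cells. Medium and Short cells differed by 0.22, 1.25 and 0.11, where 59.9% of genes were at least 1 higher in Medium cells.

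The cells were then compared by their number of detected genes. In cells above 8000 detected genes, IFITM1 TPM ran from 671 through a median of 2283 to 4063, and in cells up to 8000 from 81.2 through 5529 to 38537. IFITM1 was in the 10 highest genes of the cell in 26 of 53 cells up to 8000 and in 0 of 68 cells above. The highest was Short 13, with IFITM1 at TPM 38537 and 2577 detected genes, then Short 9 at 28319 and Long 19 at 26694. The set up to 8000 also held the 2 lowest cells, Short 14 at 81.2 and Short 6 at 204.

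IFITM1 had a mean of 12.17 ± 1.62 (SD, n = 53) on the log2(TPM + 1) scale in cells up to 8000 detected genes and of 11.17 ± 0.47 (n = 68) above. The difference of 0.996 was smaller than the SD of the lower set, and the cell with fewer detected genes was higher in 75.9% of pairs. It ran opposite to most of the 6213 genes, of which 7.71% were higher in the cells up to 8000, with a median difference of -1.45. Most of these genes were less abundant than IFITM1, and no set of genes of like level was compared. Abundant housekeeping genes fell less than the median gene, with ACTB at -0.37, GAPDH at -0.26 and PTMA at -0.01. IFITM1 stood above 99.3% of the 6213 genes and just outside the 0.676% that were at least 1 higher in the cells up to 8000, while 69.1% were at least 1 higher in the cells above. Within Long cells the difference was 1.15, where 0.756% of genes were at least 1 higher in the cells up to 8000. Medium cells gave 1.29, where 1.42% were, and Short cells, with 3 above 8000, gave 0.31. Since TPM sums to nearly the same total in every cell, a gene's TPM is a share, and fewer genes share that total in cells with few detected genes. The part of this in the difference was not tested.

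IFITM2 went with the bulk of the genes. Its TPM ran from 225 through 830 to 1918 in cells above 8000 and from 0 through 482 to 2402 in cells up to 8000. On the log2 scale the cells up to 8000 minus the cells above gave -1.35, with means of 8.36 ± 2.39 and 9.70 ± 0.62, and the low set was the higher in 27.1% of pairs. Long cells gave -1.37, Medium cells -0.42 and Short cells -2.00. Of all genes, 59.0% in Long and 74.4% in Short cells were at least 1 higher in the cells above 8000.

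IFITM3 differed little between the sets. Its TPM ran from 1741 through 2714 to 5969 in cells above 8000 and from 199 through 2563 to 11980 in cells up to 8000. The difference on the log2 scale was -0.08, with means of 11.34 ± 0.91 and 11.42 ± 0.36, and 91.2% of the 6213 genes had a lower value. After rescaling by the median ratio, which moved the median gene by 0.18, the differences were 1.25 for IFITM1, -1.16 for IFITM2 and 0.18 for IFITM3. With the sum made without ribosomal protein genes, which moved the median gene by -0.11, they were 0.84, -1.49 and -0.23. The direction for IFITM3 thus depends on the scale, and those for IFITM1 and IFITM2 were kept in both.

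**Figure D2:**
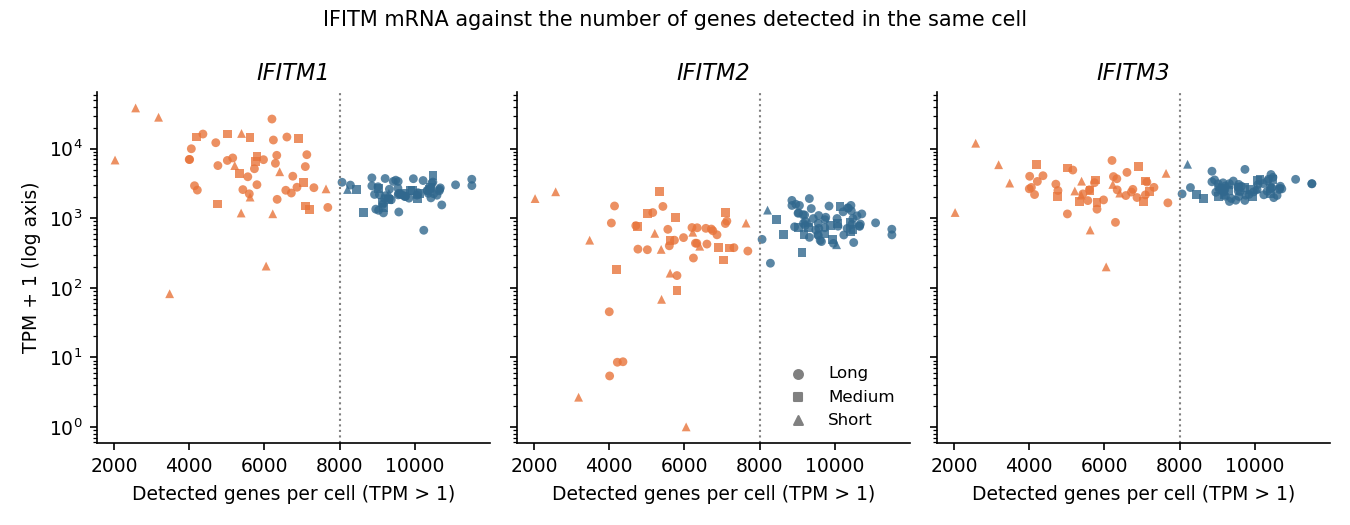
TPM + 1 on a log axis against the number of genes above TPM 1 in the same cell, for IFITM1, IFITM2 and IFITM3. Each point is 1 of 121 cells, with circles for Long, squares for Medium and triangles for Short cells, and the dotted line at 8000. To the right of the line the 3 genes vary less than to the left, where IFITM1 spreads from 81.2 to 38537 and IFITM2 from 0 to 2402.

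**Figure D3:**
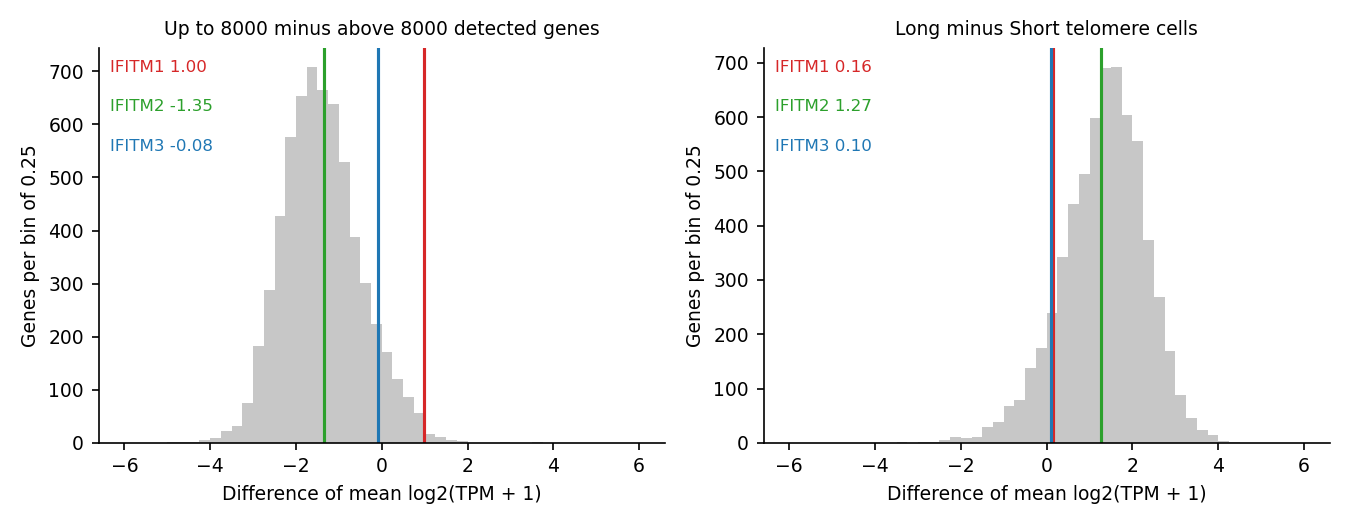
Histograms of the difference of mean log2(TPM + 1) over 6213 genes in bins of 0.25, for cells up to 8000 minus cells above 8000 detected genes (left) and for Long minus Short cells (right). Coloured lines mark the IFITM genes, with IFITM1 at the upper end on the left, IFITM2 near the bulk in both, and IFITM1 and IFITM3 near 0 on the right.

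Over all 121 cells, Pearson's r of the log2 values with the number of detected genes was -0.42 for IFITM1, 0.40 for IFITM2 and 0.01 for IFITM3, and Spearman's rho was -0.39, 0.31 and 0.03. These coefficients describe cells of unknown depth that differ in the number of genes found. Within the cells above 8000 detected genes r was 0.17 for IFITM1 and 0.01 for IFITM2, and within the cells up to 8000 it was -0.22 and 0.19.

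The balance between the 2 most abundant members therefore differed between the sets. In cells above 8000 detected genes the median ratio of IFITM1 to IFITM3 was 0.878, and IFITM1 was the higher in 21 of 68 cells. In cells up to 8000 the ratio was 2.20, and IFITM1 was the higher in 40 of 53. By telomere group, IFITM1 was the higher in 40 of 81 Long, 13 of 25 Medium and 8 of 15 Short cells. The ratio of IFITM1 to IFITM2 was 2.74 above 8000 and 11.7 up to 8000. IFITM1 made up 39.3% ± 8.51 of the summed TPM of the 3 genes in the first set and 58.9% ± 18.4 in the second.

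**Figure D4:**
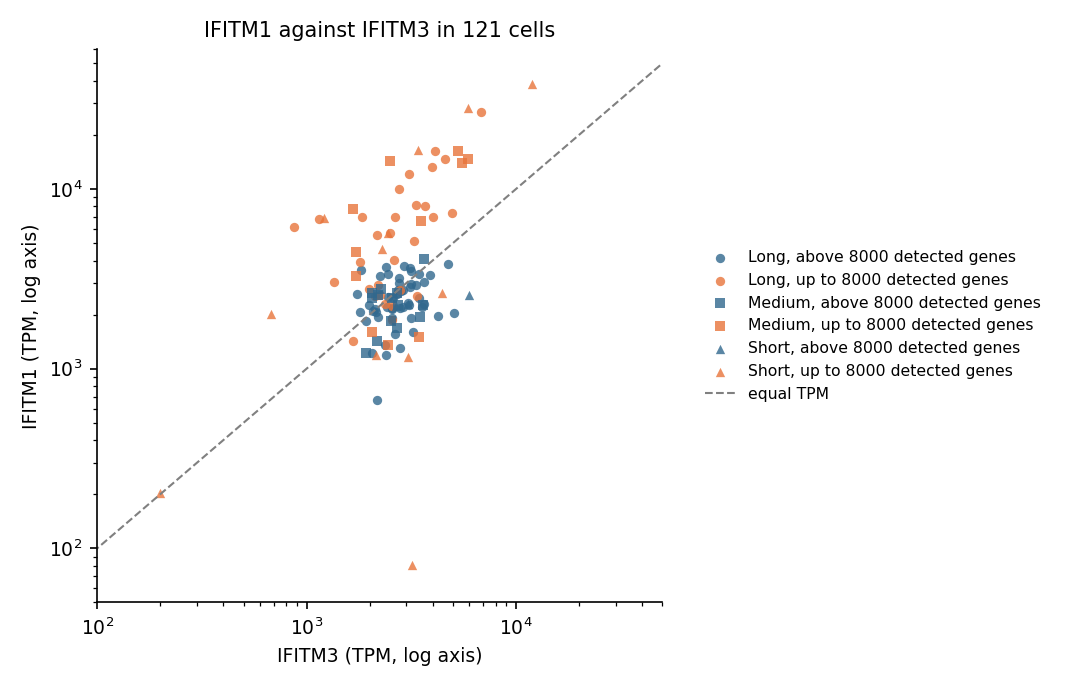
TPM of IFITM1 against TPM of IFITM3 in each of 121 cells, both on log axes, with circles for Long, squares for Medium and triangles for Short cells, blue above and orange up to 8000 detected genes. The dashed line marks equal TPM, with 21 of 68 blue and 40 of 53 orange points above it.

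Cell by cell, IFITM1 and IFITM3 varied together to some degree. Their r over 121 cells was 0.44 (rho 0.29), with 0.28 in cells above and 0.55 in cells up to 8000 detected genes. The cell Short 13 had the highest IFITM1 and IFITM3 of all cells and Short 6 the lowest IFITM3 and the lowest IFITM2, and without these 2 cells r was 0.29. Without the 2 cells farthest from the IFITM1 median, Short 13 and Short 14, it was 0.45. IFITM1 and IFITM2 had r = -0.12 (rho -0.19), which was -0.36 without Short 6 and Short 13. IFITM3 and IFITM2 had r = 0.23 (rho 0.20), which was -0.07 without those 2 cells, the farthest from the IFITM3 median. Reads that IFITM transcripts share enter these coefficients, and their part was not tested.

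Single cells showed how far the members can part. Short 9 had IFITM1 at TPM 28319 and IFITM3 at 5882 but IFITM2 at 1.67. Long 4 had IFITM1 at 16244 and IFITM2 at 7.64. Short 14 had IFITM1 at 81.2 with IFITM3 at 3202, a level near the median of that gene. In Short 6, where IFITM1 was 204, IFITM3 199 and IFITM2 0, ACTB was 107, GAPDH 7897 and POU5F1 427, so that ACTB too was far below its mean. These 4 cells had 3187, 4366, 3481 and 6046 detected genes.

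By the r of log2 values, the genes most like IFITM1 among 6210 genes were MDK (0.71), which encodes the growth factor midkine, and COX6A1 (0.71), a subunit of cytochrome c oxidase. Next were VPS29 of the retromer, PSMB6 of the proteasome, the respiratory chain genes NDUFB10, COX4I1 and NDUFA12, the chemokine-like RARRES2, TMEM258 and the glutathione transferase GSTP1, down to 0.60. All 10 were higher in cells up to 8000 detected genes, as IFITM1 was, with MDK at 10.96 against 9.13 on the log2 scale. The r of these 10 genes with IFITM1 was between 0.56 and 0.74 in cells up to 8000. In the cells above 8000, where IFITM1 varied less, it was between -0.05 and 0.26.

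The 10 genes most like IFITM2 were RPS4X (0.71), RPL14, RPL6, RPL39, CSTF3, RPL34, RPL37, NASP, EBPL and RPL29 (0.63), of which 7 encode ribosomal proteins. None of the 10 was higher in cells up to 8000 detected genes, beside 7.71% of all genes whose mean TPM reached 10. Most genes were thus lower in these cells, and this count does not set the 10 genes apart. Those most like IFITM3 were ATP5L (0.59), COX7A2, FTL, ATP5O, NDUFB2, HINT1, NDUFA4, RPS10, UQCRH and TMEM258 (0.49), 6 of which encode parts of the respiratory chain or ATP synthase. TMEM258 was the 1 gene shared between the lists of IFITM1 and IFITM3. Ranked by rho, 4 of the 10 genes of IFITM1, 1 of IFITM2 and 0 of IFITM3 remained, and in cells above 8000 detected genes alone 0, 0 and 1 did.

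The second question was whether the IFITM genes stood in a wider interferon program. Of 40 interferon-stimulated genes, 12 were above TPM 1 in at least 50% of the cells, a share of 30.0% beside 30.8% of all 25610 genes. A further 12 were above TPM 1 in under 10% of cells, and no such share over all genes is given here. The median over the list was 22.7% of cells, beside 14.0% over all 25610 genes. The highest by mean TPM were B2M (456), the light chain of MHC class I, the ubiquitin-like ISG15 (61.7), the RNA editor ADAR (45.6), BST2 (37.6), the tetherin that holds virus particles at the cell, and SAMHD1 (35.0), which breaks down nucleotides. The median of the 40 mean TPM values was 2.43, against 784 for IFITM2, the lowest of the 3 IFITM genes. Classical interferon-response genes differed widely. IFIT2 was at 0 in all cells, OAS1, OASL, IFI44 and IFI44L were each above TPM 1 in 1 cell, and MX1 was in 13. Others went the other way, with IFIT3 above TPM 1 in 35 cells, IFIT1 in 41, ISG15 in 87 and XAF1 in 104.

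**Figure D5:**
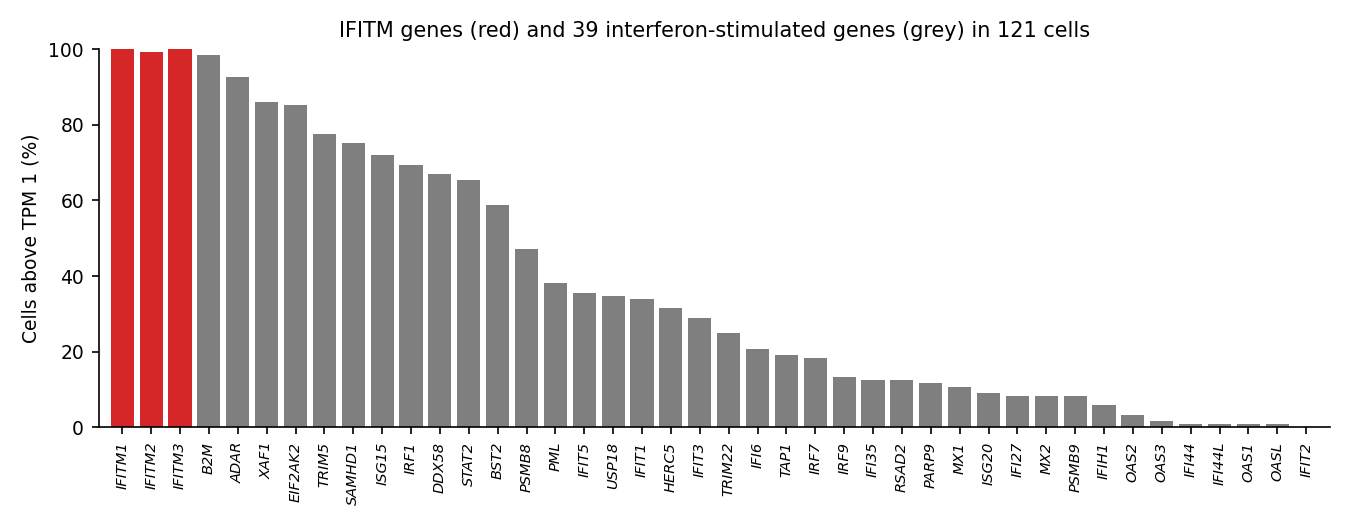
Share of 121 cells above TPM 1, in percent, for IFITM1, IFITM2 and IFITM3 (red) and for 39 of the 40 interferon-stimulated genes (grey) in order of that share. The IFITM genes stand at or near 100%, with B2M next to them, and the grey bars go down to 0 for IFIT2.

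The ISRE spelling found before IFITM1 and IFITM3 was also frequent in that list. Of the 30 interferon-stimulated genes with a promoter sequence, 15 held at least 1 match to this spelling in the 250 bases and 6 at least 2. Those with a match had a median of mean TPM of 2.35, and those without 4.43. ISG15 with 2 matches had a mean TPM of 61.7, while IFI6 with 3 had 3.45 and IFI44 with 1 had 0.0145. A match is a description of letters and not a sign of binding.

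A cell had 13.6 ± 5.08 of the 40 genes above TPM 1, with 17.1 in cells above and 9.11 in cells up to 8000 detected genes. This number went with the number of all detected genes (r = 0.87). For the 9 interferon-stimulated genes whose mean TPM reached 10, r with IFITM1 had a median of -0.26, beside -0.16 over all genes, with B2M the highest at 0.18. In cells above 8000 detected genes the median was 0.05, beside 0.03 over all genes. Between cells up to and above 8000 detected genes, 0 of these 9 were at least 1 higher in the lower set and 8 were at least 1 higher in the upper, beside the 0.676% and 69.1% of all genes over the same limit of mean TPM. The summed TPM of all 40 had a median of 751 in cells up to 8000 and 650.3 in cells above. Between Long and Short cells 5 of the 9 were at least 1 higher in Long cells and 1, ISG15, at least 1 higher in Short cells, beside 66.5% and 1.71% of all genes.

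Of the signals upstream, the ligands were at or near 0. Of 10 interferon genes, 7 were at 0 in every cell, IFNG and IFNL1 among them, beside 4530 of all 25610 genes. IFNE, IFNK and IFNB1 were above TPM 1 in 2, 2 and 1 cells. With no depth given, such a 0 is a listing and not a limit. The receptors and kinases were present at low levels, with 6 of 9 above TPM 1 in at least 50% of cells, beside 30.8% of all genes. They were led by IFNAR2 (mean TPM 30.7), IFNGR1 (20.3), IFNGR2 (15.4), JAK1 (10.2) and IFNLR1 (7.06), while JAK2 had a mean TPM of 1.01.

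Genes that modify or sort IFITM proteins were above TPM 1 in at least 50% of cells for 11 of 14, beside 30.8% of all genes. The AP-2 subunits AP2S1 and AP2M1, which draw membrane proteins into endocytic vesicles, had mean TPM of 419 and 265, the ATPase VCP of 144, the demethylase KDM1A of 65.8 and AP2B1 of 62.7. ZDHHC20, which palmitoylates IFITM3, had 19.5, and NEDD4, a ubiquitin ligase for IFITM3, had 1.03 and was above TPM 1 in 16 cells. NEDD4L of the same list had 10.2 and was above TPM 1 in 92 cells. Of 7 tetraspanins, membrane organisers of which CD9, CD81 and CD63 are found with IFITM proteins, 4 were above that limit, beside the same 30.8%. CD63, of late endosomes, had a mean TPM of 754 and an r of 0.55 with IFITM1, CD9 had 490 and -0.04, CD81 49.8 and 0.01, CD151 27.8 and -0.09, and CD82 8.09 and -0.01.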

How the data were processed

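TPM was computed by the authors and deposited as 1 table with a column per cell. The paper's methods give 50-bp single-end reads mapped to hg19 with TopHat and counted per RefGene gene with HTSeq at its defaults, whereas the submitters' processing notes name TopHat2 and RSEM. How reads shared between IFITM genes were handled is therefore not settled. Genes were read up to ZFR in alphabetical order (25610), and later symbols were not analysed here.

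Cells were grouped by the telomere group in the labels, and T/R ratios were not used. Values were compared as mean log2(TPM + 1), a scale that understates changes of low genes, beside the SD and the share of pairs, and no p-value was computed. A difference of at least 1 was called, over genes whose mean TPM reached 10. Named genes are IFITM1, IFITM2 and IFITM3, the 10 genes with the highest Pearson r to each, and the 5 highest by mean TPM of each list. Others were named after their values were seen. For 1 gene of the interferon-stimulated list, no value of its own is reported here. Members and lists were chosen with earlier results of these data known. Alternatives were other pseudocounts, detection limits, scalings and sets of cells. The scripts were tested on simulated data. Python 3.11.15, numpy 2.4.6, pandas 2.3.3, scipy 1.17.1, Biopython 1.88 and matplotlib 3.10.9 were used.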

Additional observations from a re-analysis of the deposited data

How the results depend on the processing

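No paired analysis was possible because each number in the labels only names a cell and no result came from a test. Of 159 values under alternatives, 107 were labelled as unmoved, which did not always mean close. Among these, the mean TPM of IFITM1 (4631) was 2420 in cells above and 7469 in cells up to 8000 detected genes. The Long-Short difference of IFITM3 (0.10), also labelled as unmoved, was -0.17 between medians. The differences and ratios that follow were labelled as moved. The Long-Short difference of IFITM1 (0.16) was 0.82 in cells up to 8000 detected genes and -0.61 with median ratio scaling. That of IFITM2 (1.27) was 0.66 between medians, 0.17 in cells above 8000, 0.73 with that scaling and 0.14 without Short cells 6 and 9. That of IFITM3 (0.10) was -0.41 in cells above 8000 and -0.67 with that scaling. The difference between sets was 0.31 for IFITM1, -2.00 for IFITM2 and -0.67 for IFITM3 in Short cells, and for IFITM2 -0.42 in Medium cells and -0.78 between medians. Median log2 ratios in cells up to 8000 were 3.55 for IFITM1 to IFITM2 (1.85 over all cells) and 1.14 for IFITM1 to IFITM3 (0.01). The cause of these shifts was not tested.

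For IFITM1 and IFITM2, r was 0.051 in cells up to 8000, -0.23 with median ratio scaling, 0.0615 given the number of detected genes and -0.36 without Short cells 6 and 13. For IFITM1 and IFITM3 it was 0.70 on TPM without a logarithm, 0.28 above and 0.55 up to 8000 and 0.29 without those 2 cells, with rho 0.29. For IFITM3 and IFITM2 it was 0.37 above 8000, -0.0291 with that scaling and -0.0701 without those 2 cells, which are also the farthest from the IFITM3 median. With detected genes, r of IFITM1 turned to 0.17 above 8000 and was -0.22 up to 8000, that of IFITM2 was 0.00619 and 0.19, and that of IFITM3 was -0.17 up to 8000, -0.20 with median ratio scaling and 0.13 without ribosomal protein genes in the sum. Above TPM 10, 7 interferon-stimulated genes were in at least 50% of cells. The share of genes at least 1 higher in Long cells was 24.8% over all genes above 0, 23.2% with a pseudocount of 10 and 12.7% in cells above 8000. The share higher in Short cells was 1.01% with that pseudocount, 6.94% above 8000, 3.9% up to 8000 and 4.80% with median ratio scaling.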
